A study of Mus musculus with 18 samples.

Results

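Ttr, the gene that the siRNA of this study was designed to silence, was read beside Dsg2 and B4galt6, genes on either side of it on mouse chromosome 18. The 3 genes were chosen by their symbols in the authors' deposited tables and joined by Ensembl identifier to the read counts, out of 37991 genes counted, and all 3 were among the 11153 genes tested. The question was whether silencing, and its reversal, stayed on the target transcript or reached the genes next to it.

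The cells were hepatocytes of CD-1 male mice, bought cryopreserved and able to be plated, from which total RNA was sequenced after 1 of 6 treatments, with 3 libraries each. They received the siRNA against Ttr alone, the siRNA with a scrambled REVERSIR, the siRNA with the TTR REVERSIR, the scrambled REVERSIR alone (code R-61), the TTR REVERSIR alone (code R-35), or PBS. All groups shared the same cell source, and the labels give no dose, duration or order of addition. Reversal and rescue therefore name here the higher Ttr level with siRNA + TTR REVERSIR than with active siRNA, and no course in time. Active siRNA means, by these labels, siRNA given without the TTR REVERSIR. The labels do not say whether the 3 libraries of a treatment are separate cultures, so the p-values measure the spread between these libraries, which may be technical. These are bulk samples of plated cells, in which fewer cells with a transcript and less of it per cell cannot be told apart.

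Transthyretin, the protein of Ttr, is made and secreted by hepatocytes and carries thyroid hormone and, bound to retinol binding protein, vitamin A. A GalNAc-conjugated siRNA enters hepatocytes through the asialoglycoprotein receptor, is loaded into an Argonaute protein, and guides it to cut the messenger RNA that it pairs with. A REVERSIR is a short synthetic oligonucleotide that pairs with the loaded guide strand and blocks it. Since the guide acts on a spliced transcript, genes beside the target on the chromosome carry no site by virtue of their position. Dsg2 encodes desmoglein-2, the desmosomal cadherin of simple epithelia, and B4galt6 encodes a galactosyltransferase that makes lactosylceramide.

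In the annotation of NCBIM37, the build that the submitters name, Ttr lies at 20823751 to 20832825 on the plus strand of chromosome 18, with 4 exons that cover 1219 bases. Dsg2 lies at 20716575 to 20763022 on the same strand, 60728 bases before Ttr, with 15 merged exons of 8268 bases. B4galt6 lies at 20843100 to 20904905 on the minus strand, 10274 bases beyond Ttr and facing it, with 9 merged exons of 5808 bases. The noncoding Gm16090 runs antisense from 20756465 to 20823761 and overlaps exons of Ttr by 11 bases and exons of Dsg2 by 330 bases. The sources used here do not state the strand of counting, so reads from an overlapped stretch cannot be assigned to a strand, but Gm16090 itself held 3 reads over all 18 libraries. Gm10269, a single-exon gene annotated as protein coding between Ttr and B4galt6, held 34 reads in all and was not tested.

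Library totals ran from 1755819 to 10145265 counts. The 2 mitochondrial ribosomal RNAs took 24.3% and 24.1% of the counts of PBS replicates 1 and 2. The other 16 libraries had 1.69% to 9.56%. Each comparison with PBS is therefore also given without both. That fit leaves PBS replicate 3 as the only PBS library, so only the size of a change is read from it. Of the marker lists, the 9 hepatocyte genes summed to 46259 to 60090 CPM (counts scaled to a common library size) in every library, and the macrophage, endothelial, stellate and cholangiocyte lists stayed between 9.84 and 380.3 CPM. No marker was at 0 in every library.

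Ttr was low with the siRNA alone and with the siRNA and the scrambled REVERSIR. With the siRNA and the TTR REVERSIR it was near its control level. With the siRNA alone, Ttr had 220.5, 254 and 253 CPM after TMM scaling, a correction for library composition. With the siRNA and the scrambled REVERSIR it had 227, 225 and 226 CPM. These 6 libraries lay below all 12 others, with a gap between 254 and 978 CPM. With the siRNA and the TTR REVERSIR it had 1182, 1001 and 978 CPM. The scrambled REVERSIR alone gave 1135, 1064 and 1154 CPM. The TTR REVERSIR alone gave 1357, 1083 and 1355 CPM, and PBS gave 1034, 1080 and 1220 CPM. The 4 groups without active silencing overlapped one another.

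Dsg2 was read at moderate depth, with 332 to 1825 counts per library, and its groups overlapped throughout. It had 179, 164 and 167 CPM with the siRNA alone and 183, 172 and 154 CPM with the siRNA and the scrambled REVERSIR. With the siRNA and the TTR REVERSIR it had 119, 172 and 169 CPM. The first of these libraries was the lowest of all 18. With the scrambled REVERSIR alone Dsg2 had 158, 182 and 187 CPM, and with the TTR REVERSIR alone 129, 204 and 170 CPM. With PBS it had 213, 210.2 and 160.3 CPM. The 2 highest libraries were thus PBS replicates 1 and 2, those with the large mitochondrial ribosomal share. The 2 lowest, replicate 1 of siRNA + TTR REVERSIR and replicate 1 of TTR REVERSIR, had shares of 2.05% and 1.69%, the 2 smallest of the series. The next smallest shares did not come with low Dsg2 levels. Replicate 2 of siRNA had 2.07% and 164 CPM, and replicate 2 of siRNA + scrambled REVERSIR had 2.34% and 172 CPM. The part of the mitochondrial ribosomal share in the Dsg2 level was not tested.

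B4galt6 was close to the limit of detection, with 3 to 34 counts per library and 283 counts in all. It had 2.63, 3.04 and 2.46 CPM with the siRNA alone, and 3.40, 3.03 and 2.60 CPM with the siRNA and the scrambled REVERSIR. It had 1.98, 2.50 and 3.73 CPM with the siRNA and the TTR REVERSIR. The highest of these was within the range of the PBS libraries. The scrambled REVERSIR alone gave 3.41, 3.76 and 1.69 CPM, the TTR REVERSIR alone 2.92, 2.27 and 1.93 CPM, and PBS 1.79, 3.83 and 2.52 CPM. No group stood apart for this gene.

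**Figure D1:**
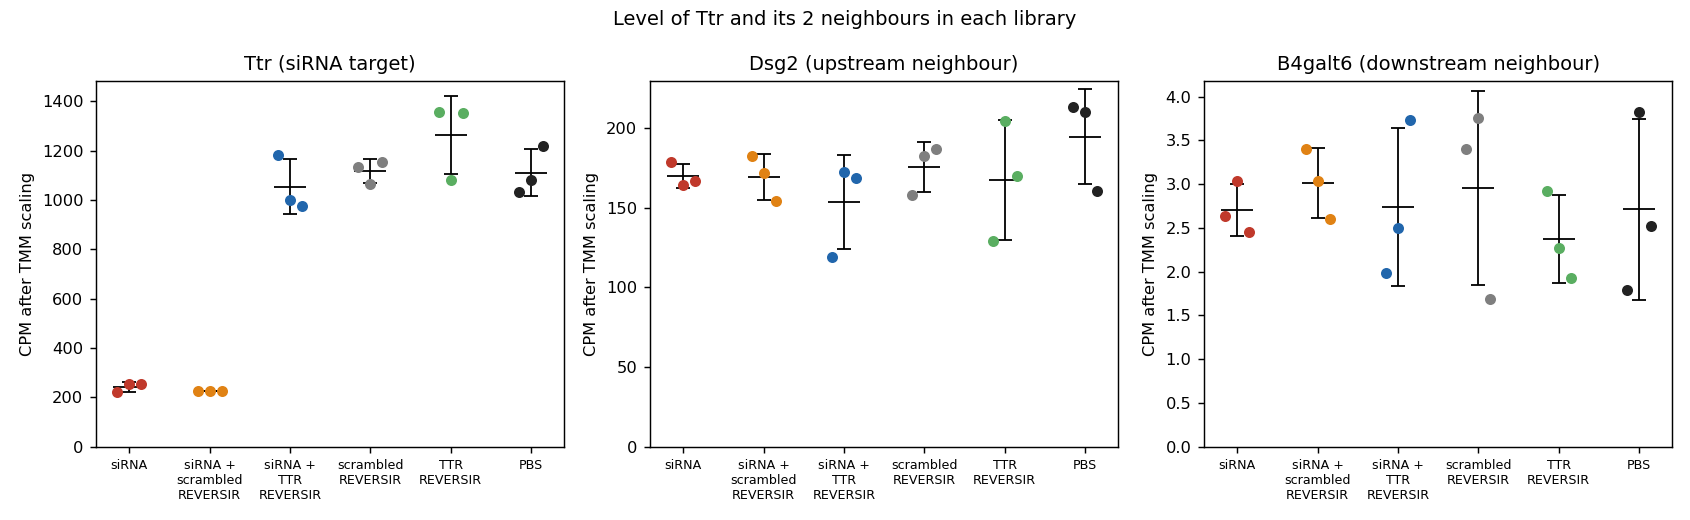
CPM after TMM scaling of Ttr, Dsg2 and B4galt6 in each of 18 libraries by treatment (dots), with the mean (line) and SD of 3 libraries (bars), each panel on its own axis from 0. Ttr is at 220.5 to 254 CPM in both groups with active siRNA and at 978 to 1357 CPM in the other 4, while the groups overlap for Dsg2 and B4galt6.

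Levels of different genes are comparable only per length of transcript. Per kilobase of exon, the mean Ttr level was 199 ± 15.7 CPM with the siRNA alone and 912 ± 79.4 CPM with PBS (SD, n = 3 each). Dsg2 stood at 20.5 ± 0.933 and 23.5 ± 3.59 CPM per kilobase in the siRNA and PBS libraries, and B4galt6 at 0.466 ± 0.0511 and 0.467 ± 0.178. Ttr thus exceeded Dsg2 by 9.69 times per kilobase in the siRNA libraries and by 38.7 times in PBS libraries, and B4galt6 by 427 and 1953 times. The silenced target therefore remained the most abundant transcript of the 3. By mean CPM over all 18 libraries, silenced and unsilenced together and without regard to length, Ttr ranked 114th, Dsg2 943rd and B4galt6 10152nd among the 11153 genes tested.

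Against PBS, the siRNA alone lowered Ttr to 21.8% ± 1.72 of the PBS mean (SD, n = 3), a log2 fold change of −2.19 ± 0.0938 (SE; edgeR quasi-likelihood test, adjusted p = 5.66e-14). It had the smallest p of all genes tested, and 2.62% of genes passed in this comparison. Dsg2 stood at 87.3% ± 3.96 and B4galt6 at 99.9% ± 10.95 of the PBS mean, and neither passed. The log2 fold change was −0.20 ± 0.134 for Dsg2 (adjusted p = 0.417), with a 95% interval on the level of 71.9% to 105% of PBS. For B4galt6 it was −0.0044 ± 0.327 (adjusted p = 0.997), with an interval of 62.5% to 159%. A modest change of B4galt6 was therefore not detectable at this depth, while a fall of either neighbour as deep as that of Ttr lies outside its interval. Without PBS replicates 1 and 2 the log2 fold changes were −2.32 for Ttr, 0.09 for Dsg2 and 0.09 for B4galt6.

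Ttr fell to a similar level in the second group with active siRNA. With the siRNA and the scrambled REVERSIR, Ttr fell to 20.3% ± 0.0621 of the PBS mean (log2 fold change −2.30 ± 0.0939, adjusted p = 2.04e-14), in a comparison where 0.61% of genes passed. An SD on such a percentage is that of the treated libraries over a fixed reference mean, and leaves out the spread of the reference. The edgeR 95% interval was 17.8% to 23.3% of PBS in this comparison. Dsg2 and B4galt6 stood at 87.1% ± 7.46 and 111% ± 14.8 there and did not pass. The log2 fold changes of Ttr, Dsg2 and B4galt6 were −2.43, 0.09 and 0.29 without PBS replicates 1 and 2. With the scrambled REVERSIR alone Ttr stood at 101% ± 4.29 of PBS, and with the TTR REVERSIR alone at 114% ± 14.2. None of the 3 genes passed in either comparison, where 0.421% and 0.699% of genes did. Ttr with the TTR REVERSIR alone had an unadjusted p of 0.0454 (log2 fold change 0.19 ± 0.0892, edgeR adjusted p = 0.294), and its log2 fold change was 0.06 without PBS replicates 1 and 2. For the scrambled REVERSIR alone that fit gave Ttr −0.12, Dsg2 0.13 and B4galt6 0.31. For the TTR REVERSIR alone it gave Dsg2 0.04 and B4galt6 −0.01.

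Dsg2 had its lowest value against PBS in the rescued cells. It stood at 78.9% ± 15.2 of the PBS mean with the siRNA and the TTR REVERSIR, with ranges of 119 to 172 CPM and 160.3 to 213 CPM in PBS. The log2 fold change of −0.35 ± 0.133 had an unadjusted p of 0.0146 and an adjusted p of 0.171 by edgeR, and 0.789% of genes passed in this comparison. The authors' deposited table listed a log2 fold change of −0.21 with an adjusted p of 0.245, where DESeq2 as run here gave −0.34 (adjusted p = 0.363). Without PBS replicates 1 and 2 the value was −0.06, and without PBS replicate 3 it was −0.47 with an adjusted p of 0.0268. With library totals alone it was −0.0072 (adjusted p = 0.961). Ttr in the same cells stood at 94.8% ± 10.1 of PBS (log2 fold change −0.08 ± 0.0890, adjusted p = 0.706) and B4galt6 at 101% ± 33.2, neither of which passed, and the values without PBS replicates 1 and 2 were −0.20 and 0.11.

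The 5 comparisons with PBS share its 3 libraries, so that a high or low PBS value enters all of them. In the authors' deposited tables against PBS, Dsg2 had log2 fold changes of −0.12 (siRNA), −0.09 (scrambled REVERSIR), −0.14 (TTR REVERSIR), −0.12 (siRNA + scrambled REVERSIR) and −0.21 (siRNA + TTR REVERSIR). The same tables listed B4galt6 between −0.02 and 0.05 with no adjusted p. They gave −1.85 and −1.94 for Ttr in the 2 comparisons with active siRNA, where DESeq2 as run here gave −2.20 and −2.30. The deposited changes of the 3 genes may thus be on another scale than those fitted here. The reason was not tested.

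In comparisons made without PBS, the levels compared leave out the 2 libraries with the large ribosomal share. Those libraries still enter the filter and the estimate of spread in the fit of all 18. Ttr with the siRNA and the scrambled REVERSIR was at 20.2% ± 0.0618 of the level with the scrambled REVERSIR alone, and low in all 3 libraries. The log2 fold change was −2.30 ± 0.0943 (edgeR adjusted p = 2.04e-14), with a 95% interval of 17.7% to 23.2% of that level. Dsg2 was at 96.5% ± 8.26 of that level (log2 fold change −0.04 ± 0.139, adjusted p = 0.986), and B4galt6 at 102% ± 13.6 (−0.02 ± 0.353, adjusted p = 1.00). Only 0.0179% of genes passed, which was 2 genes, Ttr and Serpina7. Serpina7 encodes thyroxine-binding globulin, another carrier of thyroid hormone. It had 164, 168 and 207 CPM with the siRNA and the scrambled REVERSIR, against 263, 278 and 282 CPM with the scrambled REVERSIR alone (log2 fold change −0.61 ± 0.107, adjusted p = 0.0368). Its call was lost in 4 of 6 fits that left out 1 library, with adjusted p from 0.00736 to 0.625: those without replicate 2 or 3 of scrambled REVERSIR (0.257 and 0.334) and without replicate 1 or 2 of siRNA + scrambled REVERSIR (0.625 and 0.348).

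Ttr with the siRNA and the TTR REVERSIR stood at 434% ± 46.2 of the level with the siRNA alone (log2 fold change 2.12 ± 0.0934, edgeR adjusted p = 1.17e-13). Ttr was the single gene of 11153 that passed, 0.00897% of the table. It was also the single one against siRNA + scrambled REVERSIR, where its log2 fold change was 2.22 ± 0.0935 (adjusted p = 4.05e-14) and 0.00897% of genes passed. At an unadjusted p under 0.05 there were 667 and 242 genes in these 2 comparisons, and DESeq2 called 2 and 1. Over the siRNA alone, Dsg2 had a log2 fold change of −0.15 ± 0.132 (adjusted p = 0.934), with an interval on the level of 74.6% to 109%. B4galt6 had one of 0.02 ± 0.289 (adjusted p = 0.999), with an interval of 66.9% to 153%. Over siRNA + scrambled REVERSIR the values were −0.15 ± 0.131 for Dsg2 and −0.18 ± 0.264 for B4galt6, both with an adjusted p of 1.00.

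Rescued Ttr was next set against cells that had the TTR REVERSIR and no siRNA, the matched reference for full recovery. Its mean was 83.3% ± 8.85 of that level, with single libraries from 77.3% to 93.5%, and the group ranges overlapped at 978 to 1182 CPM with the siRNA and 1083 to 1357 CPM without it. The log2 fold change was −0.26 ± 0.0891 with a 95% interval of −0.45 to −0.08 and an unadjusted p of 0.00659, and edgeR gave an adjusted p of 1.00. By that adjusted p, 0 genes (0%) passed, with 495 genes at an unadjusted p under 0.05 and 0 called by DESeq2. Dsg2 and B4galt6 were at 91.5% ± 17.7 and 115% ± 37.9 of their levels without the siRNA and did not pass. For Ttr, the siRNA effect with the TTR REVERSIR present minus that with the scrambled REVERSIR present was 2.04 ± 0.128 on the log2 scale (edgeR adjusted p = 3.28e-10). Ttr was the single gene past this test (0.00897%), with Dsg2 at −0.06 ± 0.195 and B4galt6 at 0.14 ± 0.479.

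**Figure D2:**
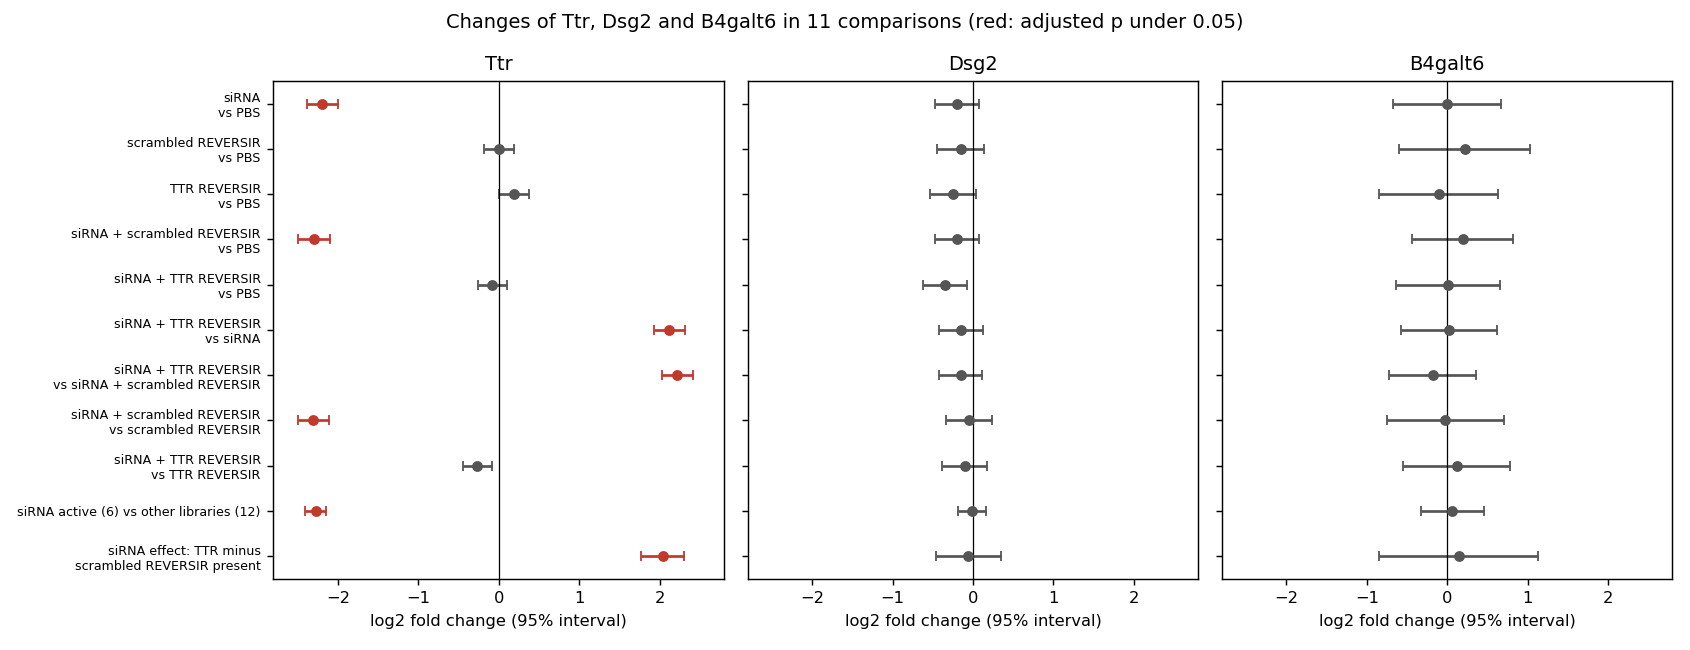
Log2 fold changes of Ttr, Dsg2 and B4galt6 (points) with 95% intervals (bars) in 11 comparisons from the fit of all 18 libraries, red where the adjusted p over 11153 genes was under 0.05. Ttr passed in 7 of 11 comparisons, and Dsg2 and B4galt6 in none, with the widest intervals for B4galt6.

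Over all 11 comparisons Dsg2 ran from −0.35 to −0.01 on the log2 scale and B4galt6 from −0.18 to 0.22, and by edgeR 0 of these 22 tests passed, with 1 of them, Dsg2 in siRNA + TTR REVERSIR against PBS, at an unadjusted p under 0.05. By DESeq2 the count past the threshold was also 0. Over all genes, edgeR passed 0% to 2.62% in the 11 comparisons, so 0 of 22 is by itself no result about these genes. Setting the 6 libraries with active siRNA, alone or with the scrambled REVERSIR, against the other 12 gave the narrowest intervals. The 12 include siRNA-treated libraries, those with the TTR REVERSIR, so this does not compare siRNA with no siRNA. Mean Dsg2 was lowest in that group (153 CPM) and highest with PBS (195 CPM), both among the 12. Dsg2 had 154 to 183 CPM with a median of 169 in the 6 libraries, against 119 to 213 CPM with a median of 171 in the 12. Its log2 fold change was −0.01 ± 0.0821 (edgeR adjusted p = 0.988), an interval of 88.2% to 112% on the level. For B4galt6 the 6 libraries had 2.46 to 3.40 CPM with a median of 2.83 and the 12 had 1.69 to 3.83 CPM with a median of 2.51. The log2 fold change was 0.06 ± 0.189 (adjusted p = 0.953), an interval of 79.8% to 137%. Ttr in this comparison fell, with a log2 fold change of −2.28 ± 0.0617 (adjusted p = 1.37e-18). The 3 values were 0.06 for Dsg2, 0.09 for B4galt6 and −2.31 for Ttr without PBS replicates 1 and 2.

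The ratio of Ttr reads to neighbour reads within a library needs no scaling between libraries. For each read of Dsg2 and B4galt6 together there were 1.22, 1.52 and 1.496 Ttr reads with the siRNA alone, and 1.22, 1.29 and 1.44 with the siRNA and the scrambled REVERSIR. With the siRNA and the TTR REVERSIR there were 9.75, 5.72 and 5.67. The scrambled REVERSIR alone gave 7.04, 5.71 and 6.13, the TTR REVERSIR alone 10.3, 5.25 and 7.88, and PBS 4.81, 5.05 and 7.49. Each of the 6 libraries with active siRNA lay below each of the other 12. Most of the neighbour reads were those of Dsg2.

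The mean log2 ratio was lower by 4.81-fold in the 6 libraries than in the 12, a difference of −2.26 (exact two-sided permutation test, p = 0.000108, the smallest that 6 against 12 can give). This p takes the 18 libraries as independent units, although treatment was given by group of 3. The libraries of a group may not be separate cultures, so the p can overstate the evidence. With Dsg2 alone as the neighbour the difference was −2.26 and with B4galt6 alone −2.37. Between groups of 3 libraries the exact test cannot go below 0.1. It reached that value for siRNA against PBS (difference −2.01), siRNA + scrambled REVERSIR against scrambled REVERSIR (−2.25) and siRNA + TTR REVERSIR against siRNA (2.28). In all 3 the ranges did not overlap. Rescued libraries and those with the TTR REVERSIR alone overlapped, with a difference of −0.14 (exact two-sided permutation p = 0.9).

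**Figure D3:**
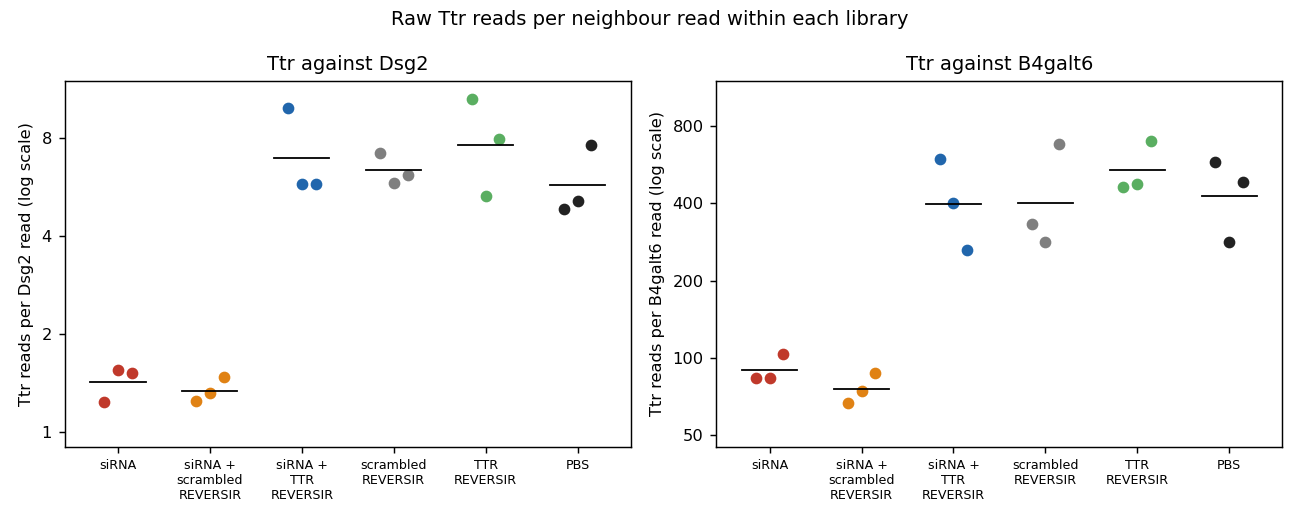
Raw Ttr reads per Dsg2 read (left) and per B4galt6 read (right) in each of 18 libraries by treatment on log axes, with the geometric mean of 3 libraries as a line. Both groups with active siRNA lie below every other library in both panels, at 1.23 to 1.55 Ttr reads per Dsg2 read against 4.85 to 10.5 elsewhere.

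The wider neighbourhood was described over every gene within 1 Mb of Ttr. The annotation holds 26 genes there, 18 of them protein coding, and 8 passed the filter on counts. Of the other 18 genes, 10 had no read in any library and 8 had at most 7 reads in a library. Much of the interval before Ttr is the cluster of desmosomal cadherins, of which Dsg2 and Dsc2 passed, while Dsg1a, Dsg1b, Dsg1c, Dsg3, Dsg4, Dsc1 and Dsc3 did not. Beyond B4galt6 lie Trappc8, a subunit of a vesicle-tethering complex, the ubiquitin ligase genes Rnf125 and Rnf138, and Fam59a.

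In the 6 libraries with active siRNA against the other 12, the 7 neighbours that passed the filter ran from −0.15 to 0.20 on the log2 scale. None passed the threshold by edgeR (0.0269% of all genes did) or by DESeq2. With so small a share, 0 of 7 is no result about the neighbours. At an unadjusted p under 0.05 there were 2, beside 8.28% of all genes. These 2 were Dsc2 (−0.15 ± 0.0557, adjusted p = 0.517) and Fam59a (0.20 ± 0.0822, adjusted p = 0.523). Trappc8 and Rnf125 stood at −0.02 ± 0.0358 and −0.03 ± 0.0531, values that turned to 0.06 and 0.06 with library totals alone, and Rnf138 at −0.14 ± 0.0892. Between siRNA + TTR REVERSIR and siRNA the 7 neighbours ran from −0.15 to 0.07. By edgeR 0 passed (0.00897% of all genes did) and 0 had an unadjusted p under 0.05 (5.98% did). By DESeq2 0 passed. Their lowest unadjusted p was 0.254. Against siRNA + scrambled REVERSIR the range was −0.28 to 0.10, lowest for Fam59a (−0.28 ± 0.121, edgeR unadjusted p = 0.0287). For siRNA + scrambled REVERSIR against scrambled REVERSIR it was −0.40 to 0.21. The siRNA effect with the TTR REVERSIR minus that with the scrambled one ran from −0.19 to 0.55. Each of these had 1 neighbour at an unadjusted p under 0.05 (2.17%, 6.22% and 5.39% of all genes) and 0 past the threshold by either tool.

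Dsc2, which encodes the desmocollin partner of desmoglein-2, was the one neighbour that passed by edgeR in any comparison, both times against PBS. It had 127, 114 and 127 CPM with the siRNA alone and 130, 117 and 118 CPM with the siRNA and the scrambled REVERSIR, against 189, 165 and 128 CPM with PBS. Its log2 fold changes were −0.39 ± 0.0902 (edgeR adjusted p = 0.0249) and −0.40 ± 0.0889 (adjusted p = 0.0355). Over all genes, edgeR passed 2.62% and 0.61% in these comparisons. DESeq2 called 1 neighbour in each of them, where it called 302 and 148 of 11153 genes. It also called 1 neighbour in TTR REVERSIR against PBS, where it called 117 genes. The 2 high libraries were PBS replicates 1 and 2. Without both, which leaves 1 PBS library, its values were −0.05 and −0.07. With library totals alone they were −0.05 and −0.07, and neither passed. Both calls were also lost, at folds of −0.25 and −0.26, without PBS replicate 1 (adjusted p = 0.285 and 0.382). Leaving out PBS replicate 2 or any 1 treated library kept folds from −0.45 to −0.34, with adjusted p from 0.0543 to 0.172. Without PBS replicate 3 both calls held, at −0.53 (edgeR adjusted p = 4.50e-05) and −0.54 (3.67e-05). Both also held with the replicate number as a block (edgeR adjusted p = 0.0313 and 0.0399). Fits of the compared groups alone gave −0.39 (adjusted p = 0.103) and −0.41 (adjusted p = 0.146). In siRNA + TTR REVERSIR libraries Dsc2 had 122, 133 and 130 CPM, and its log2 fold change against the siRNA alone was 0.06 ± 0.0887 (adjusted p = 0.960). Against PBS that group stood at −0.33 ± 0.0888 (edgeR adjusted p = 0.0651). Without the siRNA, Dsc2 had 137, 132 and 129 CPM with the scrambled REVERSIR and 121, 127 and 123 CPM with the TTR REVERSIR. The Dsc2 mean of each of the 5 treated groups was thus below that of PBS, with the siRNA or without it.

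Gene lists tied to the 3 genes by function were read in the same 2 comparisons. Over all genes tested, 0.0269% passed with active siRNA and 0.00897% on rescue, and 8.28% and 5.98% had an unadjusted p under 0.05. With these shares, 0 past the threshold in a list of 6 to 15 genes is no result about the list. Of 22 partners of Dsg2 in desmosomes and adherens junctions, 14 were tested, and 0 of 14 passed with active siRNA by edgeR (1 at an unadjusted p under 0.05, 0 by DESeq2). Their median log2 fold change was −0.0065, beside 0.0035 over all genes tested. Besides Dsc2, Krt8, a keratin anchored at desmosomes, had the smallest p (0.09 ± 0.0489, adjusted p = 0.658). On rescue 0 of 14 passed by either tool, with 0 at an unadjusted p under 0.05, led by the catenin genes Ctnnd1 (−0.20 ± 0.139) and Jup (−0.12 ± 0.0823).

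Of the list for galactosyltransferases and glycosphingolipid synthesis, 15 gene identifiers were tested, with 0 past the threshold in both comparisons by edgeR and by DESeq2. With active siRNA none had an unadjusted p under 0.05, and the median was −0.0072. The smallest p belonged to the galactosyltransferase gene B4galt3 (0.18 ± 0.0933) and to Asah1, an acid ceramidase (−0.08 ± 0.0432). On rescue 2 had an unadjusted p under 0.05, of which Ugcg, which makes the glucosylceramide that B4galt6 extends, had 0.20 ± 0.0673 (adjusted p = 0.689) and Glb1, a lysosomal galactosidase, −0.27 ± 0.112.

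Of 6 tested genes in the list for transthyretin, 0 passed with active siRNA and 0 on rescue by either tool, where 0 and 2 had an unadjusted p under 0.05. The list holds partners and receptors of transthyretin, and also Serpina7 and Alb, which carry thyroid hormone separately from it. Rbp4, the retinol binding protein that travels on transthyretin, had 939, 878 and 732 CPM with the siRNA alone, against 1216, 1151 and 763 CPM with PBS, and overlapped. The 2 high values were those of PBS replicates 1 and 2, with the large ribosomal share. Mean Rbp4 was 851 CPM with the scrambled REVERSIR alone and 855 with the TTR REVERSIR alone. It was 887 CPM with siRNA + scrambled REVERSIR and 790 with siRNA + TTR REVERSIR, beside 850 with the siRNA alone. In the comparison of 6 with 12 libraries Rbp4 stood at −0.02 ± 0.0778. The smallest p with active siRNA belonged to Apoa1 (0.10 ± 0.0539) and Alb (−0.06 ± 0.0437), and on rescue to Serpina7 (−0.44 ± 0.103, adjusted p = 0.556) and Clu (−0.20 ± 0.0703, adjusted p = 0.689). Serpina7 did pass against PBS in 2 groups, with log2 fold changes of 0.41 ± 0.106 for the siRNA alone (adjusted p = 0.0407) and 0.65 for the scrambled REVERSIR alone (adjusted p = 0.0208). The direction for the siRNA against PBS was thus opposite to that of the siRNA with the scrambled REVERSIR against the scrambled REVERSIR alone (−0.61). Without PBS replicates 1 and 2, which leaves 1 PBS library, the values against PBS were 0.33 and 0.56. Each call was lost without PBS replicate 1, without PBS replicate 2, and without replicate 2 or replicate 3 of the treated group. The edgeR adjusted p in these fits ran from 0.0962 to 0.197.

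Of 12 tested liver factors that act on the Ttr promoter, 0 passed in either comparison by either tool, with 0 at an unadjusted p under 0.05. The smallest p with active siRNA belonged to Nr2f2 (0.31 ± 0.231) and Foxa2 (0.12 ± 0.0877), and on rescue to Nr2f2 (−0.46 ± 0.320) and Foxa3 (0.15 ± 0.121). Of 12 tested genes of RNA interference and siRNA uptake, 0 passed by either tool, with 1 and 0 at an unadjusted p under 0.05. Tarbp2, a partner of Dicer, had 0.30 ± 0.107 with active siRNA (adjusted p = 0.517) and Asgr1, a subunit of the asialoglycoprotein receptor, 0.11 ± 0.0551. On rescue the smallest p belonged to Tnrc6c (−0.20 ± 0.112) and Tarbp2 (−0.27 ± 0.166).

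The genes whose levels ran most like each member were ranked by Pearson correlation of log2 CPM over the 18 libraries. For Ttr, whose libraries fall into a silenced and an unsilenced cluster, the nearest included Rg9mtd1 (r = 0.79), Vbp1 (0.75), Dnajc21 (0.71) and Eif3e (0.69). Against Ttr, Dsg2 had an r of −0.04 and B4galt6 one of −0.21. For Dsg2 the nearest were Huwe1 (0.93), Hdlbp (0.93), Actn4 (0.92), Jak1 (0.92) and Tgs1 (0.91), and for B4galt6 they were Ints1 (0.79), Cchcr1 (0.77), 2510012J08Rik (0.75), Jun (0.75) and Fhad1 (0.75). Dsg2 and B4galt6 had an r of 0.03 with each other. The libraries share depth and composition across all genes, and the correlations of B4galt6 rest on few reads.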

How the data were processed

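The authors deposited 1 table of read counts per library, as whole numbers for 37991 genes, made, per the submitters' processing notes, with STAR on the build NCBIM37. DESeq2 is also named there, and no version of either. The program that counted reads, and its strand setting, remain unstated. The authors also deposited 5 tables of comparisons with PBS, which hold the mean signal per gene over libraries, the log2 fold change, a test score, the p-value and the adjusted p. Values from them are printed only where named as theirs. Symbols and positions came from the GENCODE annotation of the same build for 37205 genes, and symbols from the deposited tables for 49 more.

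Counts were filtered by filterByExpr (11153 genes), TMM-scaled and fitted in all 18 libraries with edgeR 4.0.16 quasi-likelihood models in R 4.3.3, with group as the only term and 12 residual degrees of freedom. In each of 11 comparisons the Benjamini-Hochberg adjustment ran over all genes tested, with 0.05 as the threshold. Standard errors came from the F statistic, and intervals are 95% intervals. CPM are per effective library size. Ratios of reads used a pseudocount of 0.5 in the logarithm and exact two-sided permutation tests over libraries (scipy 1.17.1). The fit was tested on simulated data. DESeq2 1.42.0 was an alternative. Libraries were grouped by title. For siRNA + scrambled REVERSIR replicate 2 the name of the count file disagrees with the title about the number, and the title decided. No 2 libraries of a group agreed within sampling noise (chi-square per gene from 2.24).

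The members and lists were chosen with earlier results of these data known. Genes named were the members, every tested gene within 1 Mb of Ttr, the 5 genes most correlated with each member (for Ttr, a gene among them is not reported here), and per list up to 4 genes past the threshold or otherwise the 2 with the smallest p. Serpina7 between scrambled REVERSIR groups, Rg9mtd1 and Plekhg2 were named after their values were seen.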

Additional observations from a re-analysis of the deposited data

Results flagged for a closer look

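The effect of the siRNA on Ttr differed between the 2 REVERSIR settings. It was −0.26 ± 0.0891 on the log2 scale with the TTR REVERSIR present and −2.30 ± 0.0943 with the scrambled REVERSIR present. The difference of 2.04 ± 0.128 was tested as an interaction in the fit of all 18 libraries (edgeR adjusted p = 3.28e-10) and stayed between 1.94 and 2.10 over 18 alternatives, with adjusted p from 3.02e-67 to 4.13e-07. The same term was −0.06 ± 0.195 for Dsg2 and 0.14 ± 0.479 for B4galt6, and neither passed.

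The effect of the siRNA on Serpina7 had opposite directions without a REVERSIR and with the scrambled one. With the siRNA and the scrambled REVERSIR, Serpina7 had 164, 168 and 207 CPM, all below the 263, 278 and 282 CPM with the scrambled REVERSIR alone. With the siRNA alone it had 202, 229 and 262 CPM, all above the 178, 161 and 186 CPM with PBS. The siRNA effect with the scrambled REVERSIR minus that against PBS was −1.02 ± 0.150 on the log2 scale (edgeR adjusted p = 0.00583, in a test added after seeing the data, where 0.0179% of genes passed). It was −0.94 without PBS replicates 1 and 2, which leaves 1 PBS library. Leaving out 1 library gave −1.13 to −0.92, with adjusted p from 0.000411 to 0.0495. The same term was −0.11 ± 0.128 for Ttr, 0.16 ± 0.193 for Dsg2 and −0.02 ± 0.482 for B4galt6, and none of these passed.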

How the results depend on the processing

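Silencing and rescue of Ttr kept direction and call under every alternative run: −2.32 to −1.90 for siRNA against PBS, −2.43 to −2.01 for siRNA + scrambled REVERSIR against PBS, 2.03 to 2.17 for siRNA + TTR REVERSIR against siRNA, and −2.37 to −2.21 for the read ratio. The cause of the changes below was not tested. Library totals alone moved the median of all genes against PBS by 0.29 to 0.331 (log2). They gave Dsg2 0.14, 0.15, 0.085 and 0.13 for siRNA, scrambled REVERSIR, TTR REVERSIR and siRNA + scrambled REVERSIR against PBS and 0.075 for active siRNA, B4galt6 0.34 (siRNA) and 0.24 (TTR REVERSIR), Ttr 0.22 (siRNA + TTR REVERSIR) and a called 0.47 (TTR REVERSIR, adjusted p = 0.0254), and Trappc8 0.061 and Rnf125 0.057. Without PBS replicates 1 and 2, Dsg2 had 0.088, 0.13, 0.036 and 0.089 in the same 4 comparisons and 0.063 for active siRNA, B4galt6 0.089 (siRNA) and Ttr −0.12 (scrambled REVERSIR). Without a filter Ttr had −0.0046 (scrambled REVERSIR), and Dsg2 in siRNA + TTR REVERSIR against PBS was called at −0.34 (adjusted p = 0.000554). The replicate block gave B4galt6 0.0027 (siRNA against PBS).

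Genes past the threshold against PBS, in the order siRNA, scrambled REVERSIR, TTR REVERSIR, siRNA + scrambled REVERSIR and siRNA + TTR REVERSIR, were 292, 47, 78, 68 and 88. They became 3844, 1580, 2883, 3557 and 4089 with library totals, and 677, 424, 498, 564 and 585 without a filter. With the compared groups alone they were 1, 7, 0, 7 and 1. They also moved without PBS replicates 1 and 2, where 1 PBS library was left. DESeq2 gave 131 for scrambled REVERSIR and 148 for siRNA + scrambled REVERSIR, and the replicate block 47 for siRNA + TTR REVERSIR. Elsewhere, no filter gave 21 (siRNA + TTR REVERSIR against siRNA), 35 (against siRNA + scrambled REVERSIR), 41 (siRNA + scrambled REVERSIR against scrambled REVERSIR), 35 (siRNA + TTR REVERSIR against TTR REVERSIR), 47 (active siRNA) and 21 (interaction). DESeq2 gave 2 for siRNA + TTR REVERSIR against siRNA, Ttr and the complement gene C3, which was named after its value was seen. Library totals gave 1 and the compared groups alone 5 for siRNA + scrambled REVERSIR against scrambled REVERSIR, and the groups alone 1 for siRNA + TTR REVERSIR against TTR REVERSIR. For active siRNA the count was 1 with library totals and with the replicate block.

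Leaving out 1 library gave counts of 1 to 1365, 0 to 749, 0 to 978, 1 to 1142 and 0 to 1151 against PBS, the highest each time without PBS replicate 3. The lowest came without PBS replicate 1 or 2 and, in 4 of the 5, also without a treated library: scrambled REVERSIR replicate 2 or 3, TTR REVERSIR replicate 1, siRNA + scrambled REVERSIR replicate 2 and siRNA + TTR REVERSIR replicate 1. The counts ran from 1 to 2 for siRNA + TTR REVERSIR against siRNA, from 1 to 9 for siRNA + scrambled REVERSIR against scrambled REVERSIR, and from 1 to 26 for active siRNA. Ttr ran from −0.041 to 0.079 for scrambled REVERSIR against PBS. Dsg2 ran from −0.47 to −0.19 (siRNA + TTR REVERSIR against PBS), −0.24 to 0.0077 (against siRNA), −0.24 to 0.0056 (against siRNA + scrambled REVERSIR), −0.12 to 0.017 (siRNA + scrambled REVERSIR against scrambled REVERSIR), −0.28 to 0.053 (siRNA + TTR REVERSIR against TTR REVERSIR), −0.056 to 0.025 (active siRNA) and −0.23 to 0.10 (interaction). B4galt6 ran, in the order used for PBS, from −0.26 to 0.34, −0.040 to 0.56, −0.38 to 0.24, −0.056 to 0.54 and −0.28 to 0.36, then −0.28 to 0.24 (siRNA + TTR REVERSIR against siRNA), −0.48 to 0.044 (against siRNA + scrambled REVERSIR), −0.23 to 0.18 (siRNA + scrambled REVERSIR against scrambled REVERSIR), −0.18 to 0.39 (siRNA + TTR REVERSIR against TTR REVERSIR) and −0.15 to 0.42 (interaction), and Rnf125 from −0.078 to 0.0023. Of the other values, 405 of the members kept direction and side of the threshold, as did 207 of further named genes, while 65 values of Dsc2, Serpina7, Rg9mtd1 and Plekhg2 lost their call.

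Replicate numbers did not pair the libraries (median correlation −0.0112 between same-numbered libraries). In 1 of 15 pairs of groups, siRNA and siRNA + scrambled REVERSIR, every same-numbered pair was over 0.1 (0.240, 0.263 and 0.178). These groups were not compared with each other, but they were pooled as the 6 libraries with active siRNA. The replicate block changed no call of the 3 members. B4galt6 in scrambled REVERSIR against PBS could not be fitted with the groups alone, being below the filter. Its 3 to 34 reads limit all its intervals.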

Other observations

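Besides Ttr, 2 genes passed between the 6 libraries with active siRNA and the other 12, and neither lies near Ttr. Rg9mtd1, which encodes a subunit of mitochondrial ribonuclease P, had 57.1, 53.9 and 54.2 CPM with the siRNA alone and 58.2, 57.8 and 58.3 CPM with the siRNA and the scrambled REVERSIR. It had 68.2, 67.1 and 67.0 CPM with the siRNA and the TTR REVERSIR, 60.6, 67.7 and 59.0 CPM with the scrambled REVERSIR alone, 63.8, 68.7 and 65.7 CPM with the TTR REVERSIR alone, and 73.2, 73.0 and 71.6 CPM with PBS. All 6 libraries with active siRNA lay below all 12 others (log2 fold change −0.25 ± 0.0419, edgeR adjusted p = 0.0259).

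Plekhg2, a guanine nucleotide exchange factor gene, moved the other way. It had 13.98, 13.3 and 13.5 CPM with the siRNA alone, 15.02, 13.4 and 12.7 CPM with the siRNA and the scrambled REVERSIR, and 8.85, 10.02 and 10.4 CPM with the siRNA and the TTR REVERSIR. The scrambled REVERSIR alone gave 9.84, 8.54 and 8.43 CPM, the TTR REVERSIR alone 10.4, 10.5 and 11.3 CPM, and PBS 10.5, 8.79 and 11.6 CPM. All 6 lay above all 12 (log2 fold change 0.47 ± 0.0838, adjusted p = 0.0368).

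Both calls sat close to the threshold. Leaving out 1 library ended the call of Rg9mtd1 in 9 of 18 fits and that of Plekhg2 in 16 of 18, with adjusted p up to 0.175 and 0.321. For Rg9mtd1 these were PBS replicates 1 and 2, siRNA replicates 2 and 3, scrambled REVERSIR replicate 2, TTR REVERSIR replicate 3 and all 3 of siRNA + scrambled REVERSIR, and for Plekhg2 all but PBS replicate 3 and siRNA + TTR REVERSIR replicate 3. With the replicate number as a block the edgeR adjusted p was 0.0603 and 0.0703. With 1 library left out, the log2 fold changes stayed between −0.26 and −0.23 and between 0.43 and 0.49. Both genes were singled out after their values were seen.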
